A study of Homo sapiens with 9 samples.

Results

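The TRIM (tripartite motif) family of ubiquitin ligases was followed through MPZL3 knockdown in OVCAR4 cells, an established human cell line of high-grade serous ovarian cancer. Members were the protein-coding genes of the count table whose symbol is TRIM, a number and at most 1 further letter, which gave 73 of the 58735 genes listed and of 19951 protein-coding genes. A list written from general knowledge set apart 10 interferon-inducible members (TRIM5, TRIM14, TRIM21, TRIM22, TRIM25, TRIM26, TRIM34, TRIM38, TRIM56 and TRIM69) from the remaining 63. The study asked which transcripts follow the loss of MPZL3, a predicted cell adhesion molecule. The 9 libraries came from cells transduced with the scr control (n = 3), shMPZL3 #1 (n = 3) or shMPZL3 #2 (n = 3) in the lentiviral pLKO.1 vector and kept under puromycin for 3 days, so that the scr cells carried the vector, a hairpin and the selection as well. No interferon treatment is named in the labels.

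Most TRIM proteins carry a RING domain, which recruits an E2 enzyme and passes ubiquitin to a substrate, followed by B-box zinc fingers, a coiled coil and a variable carboxy-terminal domain that selects the target. Many members act in innate immunity, as restriction factors that meet a virus directly or as regulators of the RIG-I, STING and Toll-like receptor pathways, and a subset is transcribed in response to interferon through the interferon-stimulated response element (ISRE). Others regulate chromatin, microtubules, muscle turnover or translation.

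The promoter windows of listed members are shown because they can be read beside the values that follow. Windows of 300 bases (250 before the RefSeq transcript start and 50 from it, GRCh38.p14) were found for 56 of 73 members, 9 of them on the interferon list, and the window of TRIM22 was not among them. The ISRE core was searched on both strands as GAAA, any 2 bases and GAAA, and it was found in 6 of the 9 listed members with a window (66.7%), in 4 of 47 remaining members (8.51%), and in 996 of 27305 promoters (3.65%). In each line the 30 bases are those of the strand of the gene, and capitals mark the match, which reads as TTTC, 2 bases and TTTC where it lies on the opposite strand.
TRIM21, chr11:4393666-4393695, minus strand: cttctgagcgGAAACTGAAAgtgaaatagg
TRIM5, chr11:5685082-5685111, minus strand: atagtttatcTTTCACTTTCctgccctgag
TRIM14, chr9:98119229-98119258, minus strand: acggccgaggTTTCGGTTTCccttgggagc
TRIM69, chr15:44736456-44736485, plus strand: ctaatgagggTTTCTCTTTCtcttaagcaa
TRIM26, chr6:30213575-30213604, minus strand: ctgatttcagTTTCCATTTCgctgcccctg
TRIM34, chr11:5624901-5624930, plus strand: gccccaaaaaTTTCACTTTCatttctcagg
TRIM16, chr17:15683012-15683041, minus strand: acagaggtaaGAAATAGAAAtaaagggtcc
TRIM2, chr4:153151936-153151965, plus strand: aataaatagaGAAAAGGAAAtaagccgaag
TRIM44, chr11:35662730-35662759, plus strand: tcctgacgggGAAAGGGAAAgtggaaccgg
The last 3 lines are all the tested members outside the list with a match, and below TRIM16 was called higher, TRIM2 was called lower with shMPZL3 #2, and TRIM44 was called in no comparison. TRIM64C, with 0 counts, was the other member outside the list with a match. TRIM21 and TRIM26 each held a second, overlapping match, while TRIM25, TRIM38 and TRIM56 had none in this window. The GAS motif, TTC, any 3 bases and GAA, was found in 0 of 9 listed members, in 10 of 47 remaining members (21.3%) and in 7.88% of all promoters. These matches are letters in a window and not measured binding sites.

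Total counts ranged from 15040102 to 27835841 per library, and TRIM members took 0.234% to 0.279% of them. MPZL3 had 536 to 611 normalized counts in scr, 119 to 143 with shMPZL3 #1 and 271 to 380 with shMPZL3 #2, so that all 6 knockdown libraries matched their labels. Normalized counts are counts scaled by TMM factors to the mean library. Of the 10 serous epithelial markers, EPCAM (7461 to 8805 normalized counts) and PAX8 (4605 to 6174) were high in all libraries, and WT1 was near 0 (2.25 to 12.9). Against scr, 9 of the 10 could be tested. With all 6 knockdown libraries 0 were called higher and 1 lower, beside 9.36% and 6.4% of all genes. With shMPZL3 #1, 2 were higher and 2 lower, beside 16.8% and 15.3%. With shMPZL3 #2, 0 were higher and 1 lower, beside 9.36% and 5.8%. Of the 9 leukocyte markers, CD3E, LYZ and CD68 were at 0 in 8 of the 9 libraries each, PTPRC had 3.7 to 26.4 normalized counts, and the summed level was 2.59 to 3.35 CPM (counts scaled by depth) in scr and 3.83 to 6.92 in the knockdown, with CD14 and ITGAM called higher. The 6 fibroblast markers summed to 15.9 to 20.3 CPM in scr and 30.6 to 51.3 in the knockdown, with COL1A1 and LUM called higher and DCN at 0. The 4 endothelial markers summed to 8.16 to 10.1 CPM in scr, 7.40 to 8.93 with shMPZL3 #1 and 12.5 to 16.2 with shMPZL3 #2. The part of these markers in the TRIM results was not tested, and in bulk RNA a change in the share of cells that express a gene and a change in RNA per cell cannot be told apart.

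TRIM28, the KAP1 corepressor that KRAB zinc-finger proteins bring to chromatin, stood far above the rest in scr cells. Levels per length, as RPKM (counts scaled by the depth of the library and by the gene length of the table), were 234 ± 2.92 for TRIM28, 23.8 ± 0.521 for TRIM2, 15.8 ± 0.196 for TRIM26, 12.6 ± 0.746 for TRIM27 and 11.4 ± 1.41 for TRIM16 (mean ± SD, n = 3). TRIM27 and TRIM16 overlapped between libraries, whereas each of the first 3 lay clear of its neighbours. In scr, 36 members had a mean of at least 1 RPKM, 9 lay between 0.1 and 1, and 28 were lower, of which 10 had no count in any library. On the interferon list the order in scr was TRIM26, TRIM38 (9.76 ± 0.529 RPKM), TRIM56 (9.53 ± 0.843), TRIM25 (7.59 ± 0.747), TRIM5 (3.36 ± 0.198), TRIM14 (2.69 ± 0.217), TRIM21 (1.54 ± 0.185), TRIM69 (1.52 ± 0.135) and TRIM22 (0.130 ± 0.049). TRIM38 and TRIM56, and TRIM21 and TRIM69, differed by less than their spread. TRIM34 had 0 counts in all 9 libraries, and 83.0% of its exonic bases are shared with the readthrough gene TRIM6-TRIM34, which had 0 as well, so no level of TRIM34 can be given.

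**Figure D1:**
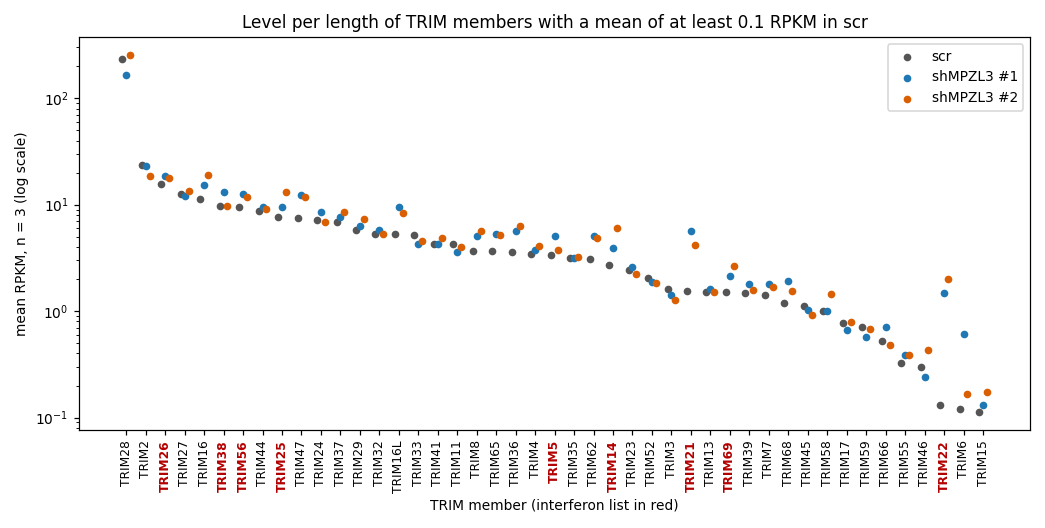
Mean RPKM (log scale, n = 3 libraries per group) of the TRIM members with at least 0.1 RPKM in scr, ordered by their level in scr, with points for scr, shMPZL3 #1 and shMPZL3 #2 and the interferon list in red. TRIM28 lies at 234 RPKM in scr, and TRIM22, at 0.130 in scr, is the listed member farthest down the order and moves up to 1.48 and 2.00 with the shRNAs.

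In the grouped comparison of 6 knockdown with 3 scr libraries, TRIM transcripts rose or did not pass the test, and none was called lower. Of the 73 members, 46 had enough counts to be tested (9 on the interferon list and 37 remaining), and a member that was not tested reached at most 16 counts in a library. At an adjusted p under 0.05 (edgeR quasi-likelihood test, Benjamini-Hochberg over 16928 genes), 13 members were higher and 0 lower, beside 9.36% of all genes higher and 6.4% lower. None was lower at an unadjusted p under 0.05. DESeq2 called 15 members higher and 0 lower, and over all genes it called 3545 in either direction, against 2667 by edgeR. On the interferon list 6 of 9 were higher, with a median log2 fold change of 0.57, and among the remaining members 7 of 37 were higher, with a median of 0.18, while the median of all genes was 0.02. All 6 knockdown libraries lay above all 3 scr libraries for 14 of the 46 members, 6 of them on the list, and this held for 11.8% of all genes. The number of calls depended on the controls. Without scr replicate 1 there were 6 members higher, without scr replicate 2 there were 10 and without scr replicate 3 there were 8, and over all genes the calls in either direction went from 2667 to 625, 962 and 1238.

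TRIM22, a nuclear antiviral factor that restrains viral transcription, showed the largest rise among the 46 tested members. Its normalized counts were 10.6, 22.6 and 15.1 in scr, 90.6, 194 and 265 with shMPZL3 #1 and 130, 302 and 310 with shMPZL3 #2. Every knockdown library lay above the highest control, and the controls rested on 8, 24 and 11 raw counts. The grouped log2 fold change was 3.69 ± 0.46 (SE), a 12.9-fold rise (adjusted p = 0.000473), with 3.44 ± 0.44 for shMPZL3 #1 and 3.88 ± 0.44 for shMPZL3 #2. The exact permutation test of log2 CPM for 6 against 3 libraries gave 0.0119 (two-sided), which is the smallest p this design allows. This p is not adjusted for the 46 members and restates the separation of the groups. All knockdown libraries lay above all scr libraries for 14 members, beside 11.8% of all genes. Replicate 1 was the lowest library of each shRNA.

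TRIM21, the cytosolic antibody receptor that targets antibody-coated virus for degradation, rose next among the called members. It had 54.5, 68.9 and 59.1 normalized counts in scr, 206, 211 and 253 with shMPZL3 #1 and 113, 174 and 214 with shMPZL3 #2, with no overlap between knockdown and scr. The grouped rise was 3.19-fold (log2 fold change 1.67 ± 0.24, adjusted p = 0.00101). TRIM21 and TRIM22 were called in all comparisons with scr whichever library was left out. This was not particular to the list, since TRIM16L, TRIM36, TRIM47 and TRIM62, outside it, kept all these calls as well.

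TRIM14, a RING-less adaptor that acts at the mitochondrial antiviral protein MAVS, had 302, 326 and 278 normalized counts in scr, 409, 392 and 528 with shMPZL3 #1 and 716, 607 and 728 with shMPZL3 #2. The groups did not overlap, and the 3 libraries of shMPZL3 #2 lay above those of shMPZL3 #1. The log2 fold change was 0.55 ± 0.14 for shMPZL3 #1 (adjusted p = 0.00693) and 1.18 ± 0.14 for shMPZL3 #2 (adjusted p = 3.04e-05), and the test of the difference between the shRNAs gave 0.63 ± 0.14 (adjusted p = 0.00531). Of its exonic bases, 7.7% overlap NANS on the opposite strand, and the libraries were not stranded. The grouped call (0.90 ± 0.20, adjusted p = 0.0116) was lost without scr replicate 1 (adjusted p = 0.0676) or scr replicate 3 (adjusted p = 0.058).

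TRIM69, a member that restricts vesicular stomatitis virus, had 261, 311 and 294 normalized counts in scr, 407, 372 and 447 with shMPZL3 #1 and 493, 508 and 529 with shMPZL3 #2. All knockdown libraries lay above scr, and the grouped log2 fold change was 0.67 ± 0.14 (adjusted p = 0.00767), or 0.59 (adjusted p = 0.0666) without scr replicate 1. TRIM25, the ligase that ubiquitylates the RNA sensor RIG-I, had 1335, 1484 and 1626 normalized counts in scr, 1557, 1778 and 2222 with shMPZL3 #1 and 2331, 2525 and 2764 with shMPZL3 #2. Its libraries with shMPZL3 #1 overlapped scr and those with shMPZL3 #2 did not, and the difference between the shRNAs passed the test (0.46 ± 0.12, adjusted p = 0.0198). That difference missed the threshold without shMPZL3 #1 replicate 1 (adjusted p = 0.0752), shMPZL3 #1 replicate 2 (0.0556) or shMPZL3 #2 replicate 3 (0.105). Against scr, TRIM25 was higher with shMPZL3 #2 (0.78 ± 0.13, adjusted p = 0.000429) and reached 0.32 ± 0.13 with shMPZL3 #1 (adjusted p = 0.0588). The grouped value, 0.57 ± 0.16 (adjusted p = 0.033), lost its call without scr replicate 1, 2 or 3 (adjusted p of 0.172, 0.111 and 0.0705).

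TRIM56, a ligase that promotes STING and Toll-like receptor 3 signalling, moved by a smaller amount. It had 1973, 2350 and 2238 normalized counts in scr against 2573 to 3201 in the 6 knockdown libraries, without overlap. The grouped log2 fold change was 0.36 ± 0.10 (adjusted p = 0.032), and the adjusted p rose to 0.2, 0.0754 and 0.0994 without scr replicate 1, 2 and 3. The change was 0.40 ± 0.11 with shMPZL3 #1 (adjusted p = 0.00881, and 0.0631 without scr replicate 1) and 0.32 ± 0.11 with shMPZL3 #2 (adjusted p = 0.0504).

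The 3 other tested members of the list, TRIM5, TRIM26 and TRIM38, did not pass the grouped test. TRIM5, which recognises retroviral capsids, had 313 to 352 normalized counts in scr, 437, 523 and 548 with shMPZL3 #1 and 393, 387 and 319 with shMPZL3 #2. TRIM38, which limits Toll-like receptor signalling, had 1780 to 1984 in scr, 2306, 2697 and 2574 with shMPZL3 #1 and 1906, 1885 and 1814 with shMPZL3 #2. For both genes shMPZL3 #1 lay above scr without overlap and shMPZL3 #2 overlapped scr. TRIM5 was higher with shMPZL3 #1 (0.60 ± 0.14, adjusted p = 0.00306), with 0.14 ± 0.14 for shMPZL3 #2, and the shRNAs differed by -0.46 ± 0.13 (adjusted p = 0.0294), a call that was lost without shMPZL3 #1 replicate 2 (adjusted p = 0.0779), shMPZL3 #1 replicate 3 (0.11) or shMPZL3 #2 replicate 3 (0.138). TRIM38 was higher with shMPZL3 #1 (0.42 ± 0.09, adjusted p = 0.00282), with -0.01 ± 0.09 for shMPZL3 #2, and the shRNAs differed by -0.44 ± 0.09 (adjusted p = 0.00516). TRIM26 had 1399 to 1434 normalized counts in scr and 1462 to 1825 in the knockdown, and its 0.21 ± 0.09 missed the grouped threshold (adjusted p = 0.14) although the groups did not overlap.

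**Figure D2:**
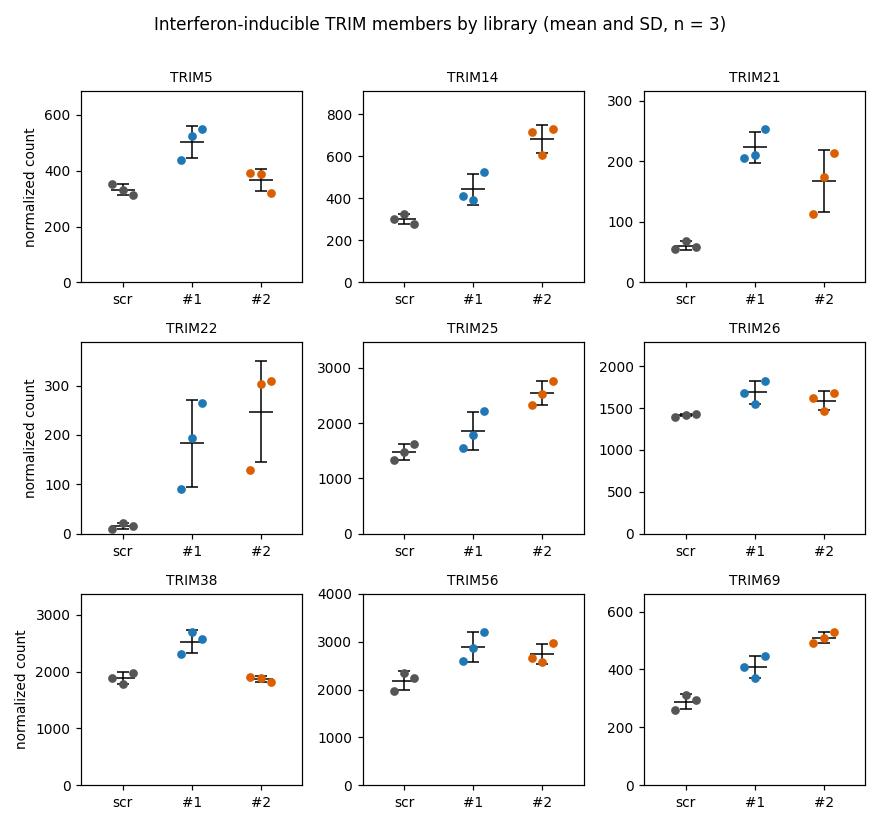
Normalized counts of the 9 tested interferon-inducible TRIM members in each library (points), with the mean and SD of 3 libraries, for scr, shMPZL3 #1 (#1) and shMPZL3 #2 (#2), on axes that start at 0. TRIM22 and TRIM21 rise with both shRNAs, TRIM14 and TRIM25 are highest with shMPZL3 #2, and TRIM5 and TRIM38 with shMPZL3 #1.

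Outside the list, 7 members were called higher in the grouped comparison. They were TRIM16L (0.76 ± 0.14, adjusted p = 0.00347), TRIM36 (0.73 ± 0.13, adjusted p = 0.00338), TRIM47 (0.69 ± 0.13, adjusted p = 0.0051), TRIM62 (0.68 ± 0.12, adjusted p = 0.00333), TRIM16 (0.59 ± 0.13, adjusted p = 0.0121), TRIM8 (0.55 ± 0.13, adjusted p = 0.0127) and TRIM65 (0.52 ± 0.12, adjusted p = 0.0123). In each of them all 6 knockdown libraries lay above all 3 scr libraries. TRIM37 was the other remaining member without overlap (741 to 823 normalized counts in scr and 838 to 1003 in the knockdown), and it missed the test (0.23, adjusted p = 0.116). TRIM16, a RING-less member linked to autophagy and the oxidative stress response, had 1136, 1410 and 1426 normalized counts in scr, 1701, 1697 and 1892 with shMPZL3 #1 and 2087, 2053 and 2498 with shMPZL3 #2. Its near copy TRIM16L had 380 to 513 in scr, 711 to 955 with shMPZL3 #1 and 728 to 750 with shMPZL3 #2, and reads could be divided between these 2 loci in an uncertain way. TRIM8, which acts in cytokine and NF-kB signalling, had 691 to 742 in scr and 831 to 1228 in the knockdown. TRIM65, a ligase that acts on the RNA sensor MDA5, had 281 to 315 in scr and 380 to 471 in the knockdown. TRIM36, which associates with microtubules, had 427 to 492 in scr and 634 to 940 in the knockdown, TRIM47 had 457 to 528 and 613 to 906, and TRIM62 had 207 to 257 and 346 to 406. These rises were between 1.43-fold and 1.69-fold, below those of TRIM14, TRIM21 and TRIM22 on the list. All 7 were above the rise of TRIM56, which is on the list and was called. Those of TRIM16L, TRIM36, TRIM47 and TRIM62 were close to or above the rise of TRIM69, and above that of TRIM25. An antisense transcript covers 51.5% of the exonic bases of TRIM47, in libraries that do not mark strand. It was given 21 counts in all libraries, and TRIM47 was given 6237. The part of this overlap in the values of TRIM47 was not tested. The grouped call of TRIM16 was lost without scr replicate 1 (adjusted p = 0.0998), that of TRIM65 without scr replicate 1 or 3 (0.0938 and 0.0553), and that of TRIM8 without scr replicate 1, 2 or 3 (0.0715, 0.0726 and 0.0517).

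The comparisons of each shRNA with scr share the same 3 controls, so their values are given side by side. With shMPZL3 #1, 17 of 46 members were higher (7 of 9 on the list and 10 of 37 remaining), beside 16.8% of all genes, and 1 was lower, beside 15.3%. With shMPZL3 #2, 12 were higher (5 on the list and 7 remaining), beside 9.36% of all genes, and 1 was lower, beside 5.8%. The median log2 fold change of the list was 0.50 with shMPZL3 #1 and 0.78 with shMPZL3 #2, against 0.13 and 0.17 for the remaining members and 0.01 and 0.00 for all genes. For the members called in the grouped comparison outside the list, the paired values for shMPZL3 #1 and shMPZL3 #2 were 0.86 and 0.65 for TRIM16L, 0.65 and 0.81 for TRIM36, 0.72 and 0.66 for TRIM47, 0.72 and 0.64 for TRIM62, 0.41 and 0.74 for TRIM16, 0.46 and 0.63 for TRIM8, and 0.54 and 0.50 for TRIM65, all of them called. Of these, TRIM16 with shMPZL3 #1 lost its call without scr replicate 1 (adjusted p = 0.0785), TRIM8 with shMPZL3 #1 without scr replicate 2 (0.0524) or shMPZL3 #1 replicate 3 (0.0566), and TRIM65 with shMPZL3 #2 without scr replicate 1 (0.0878), scr replicate 3 (0.0587) or shMPZL3 #2 replicate 3 (0.0934). TRIM68, also known as SS-56, was called with shMPZL3 #1 alone (0.70 ± 0.19, adjusted p = 0.00822, and 0.0501 without scr replicate 2), and its value with shMPZL3 #2 was 0.41 ± 0.19 (adjusted p = 0.156), with no difference between the shRNAs past the test (adjusted p = 0.291).

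**Figure D3:**
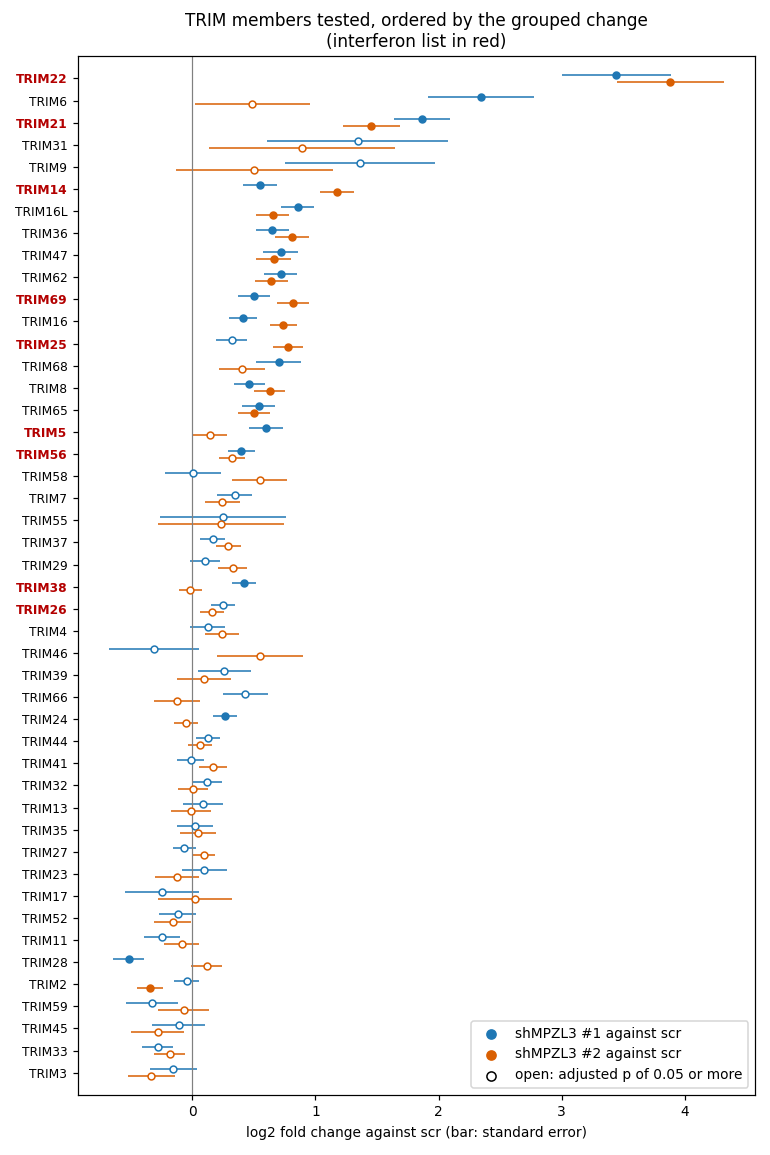
Log2 fold change against scr (bars, standard error) of the 46 tested TRIM members for shMPZL3 #1 and shMPZL3 #2, ordered by the grouped change, with filled points at an adjusted p under 0.05 and the interferon list in red. TRIM22 stands at 3.44 and 3.88 and TRIM21 at 1.86 and 1.46, while TRIM6, TRIM38, TRIM5 and TRIM28 are split between the shRNAs.

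The direct comparison of shMPZL3 #2 with shMPZL3 #1 tested those splits with the controls left out of the contrast. Of 46 members, 3 were higher with shMPZL3 #2 (TRIM14, TRIM25 and TRIM28), beside 7.56% of all genes, and 5 were lower (TRIM5, TRIM6, TRIM24, TRIM38 and TRIM66), also beside 7.56%. TRIM28 had 19392, 19683 and 19204 normalized counts in scr, 16169, 11376 and 13279 with shMPZL3 #1 and 23245, 17783 and 22224 with shMPZL3 #2. All libraries of shMPZL3 #1 lay below scr, and those of shMPZL3 #2 fell on both sides of it. The change against scr was -0.51 ± 0.12 with shMPZL3 #1 (adjusted p = 0.00479) and 0.12 ± 0.12 with shMPZL3 #2 (adjusted p = 0.569), and the shRNAs differed by 0.63 ± 0.12 (adjusted p = 0.00274). These calls of TRIM28 were kept whichever library was left out.

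TRIM6, a ligase that makes unanchored ubiquitin chains in the interferon response, had few counts. Raw counts were 9, 7 and 8 in scr, 40, 64 and 51 with shMPZL3 #1 and 11, 15 and 19 with shMPZL3 #2, which is 6.60 to 12.0, 36.6 to 63.6 and 11.1 to 15.2 normalized counts. The shMPZL3 #1 libraries stood apart from both other groups. The rise with shMPZL3 #1 was 5.07-fold (log2 fold change 2.34 ± 0.43, adjusted p = 0.000575), the value with shMPZL3 #2 was 0.49 ± 0.47 (adjusted p = 0.519), and the shRNAs differed by -1.85 ± 0.40 (adjusted p = 0.00463). TRIM6 lies next to TRIM34 and shares 29.3% of its exonic bases with TRIM6-TRIM34.

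TRIM24 and TRIM66, relatives of TRIM28 with a PHD finger and a bromodomain, moved less. TRIM24 had 1290 to 1408 normalized counts in scr, 1535 to 1694 with shMPZL3 #1 and 1181 to 1376 with shMPZL3 #2, and TRIM66 had 120 to 137, 168 to 175 and 101 to 145. In both, shMPZL3 #1 lay above the other groups without overlap. Of the exonic bases of TRIM66, 0.8% overlap RPL27A on the opposite strand, in libraries that do not mark strand. RPL27A was given 59174 counts in all libraries and TRIM66 was given 1240, and the part of this overlap was not tested. The shRNAs differed by -0.32 ± 0.10 for TRIM24 (adjusted p = 0.0334) and by -0.56 ± 0.18 for TRIM66 (adjusted p = 0.0475). Leaving out 1 library took the call of TRIM24 away in 6 of 9 cases (scr replicates 2 and 3, shMPZL3 #1 replicates 2 and 3, and shMPZL3 #2 replicates 1 and 3, adjusted p from 0.0543 to 0.129) and that of TRIM66 in 8 of 9 (all but shMPZL3 #2 replicate 1, adjusted p from 0.0552 to 0.177). Against scr, TRIM24 was higher with shMPZL3 #1 (0.27 ± 0.10, adjusted p = 0.0427), and this was lost without scr replicate 1, 2 or 3 or shMPZL3 #1 replicate 2 or 3 (adjusted p from 0.0712 to 0.165). TRIM2, a NHL-repeat ligase of neurons, had 4505 to 4707 normalized counts in scr, 4247 to 4895 with shMPZL3 #1 and 3258 to 4103 with shMPZL3 #2. It was lower with shMPZL3 #2 (-0.34 ± 0.10, adjusted p = 0.0335), a call lost without scr replicate 1, 2 or 3 or shMPZL3 #2 replicate 1 or 3 (adjusted p from 0.0684 to 0.214).

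**Figure D4:**
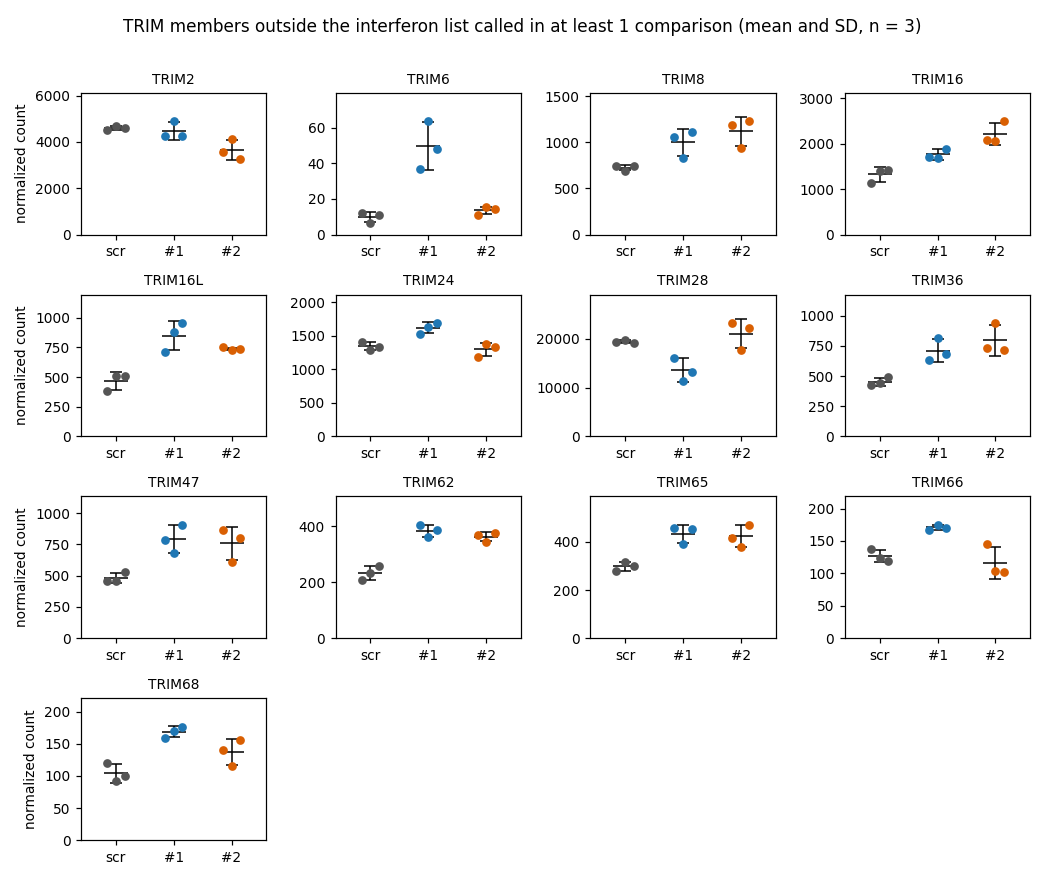
Normalized counts by library (points), with the mean and SD of 3 libraries, of the 13 TRIM members outside the interferon list that were called in at least 1 comparison, for scr, shMPZL3 #1 (#1) and shMPZL3 #2 (#2), on axes that start at 0. TRIM28 is low with shMPZL3 #1 (11376 to 16169) and TRIM6 is high there (36.6 to 63.6), whereas TRIM16L, TRIM36, TRIM47 and TRIM62 lie above scr with both shRNAs.

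By domain class, the grouped calls are read beside the 9.36% of all genes called higher and the 6.4% called lower, and beside 7 of 37 members higher outside the list. Of the 4 PHD-bromodomain members (TRIM24, TRIM28, TRIM33 and TRIM66) 0 were called, with values from -0.23 for TRIM33 to 0.18 for TRIM66. Of the NHL-repeat members 3 were tested and 0 called, with -0.24 for TRIM3 and -0.18 for TRIM2. Of the COS-box members that bind microtubules, 1 of 3 was called, TRIM36, while TRIM9 (1.00, adjusted p = 0.257) rested on 3.99 to 10.4 normalized counts in scr. Of the muscle RING finger members 1 was tested, TRIM55, and it was not called (0.24). Of a further list with 5 tested members of other domain architectures (TRIM13, TRIM23, TRIM37, TRIM45 and TRIM59) 0 were called, with values from -0.19 to 0.23. Of the 6 members that lack a RING domain 3 were higher, TRIM16, TRIM16L and TRIM14, the last of which is also on the interferon list. In the PHD-bromodomain and NHL-repeat classes 0 members passed an unadjusted p under 0.05 or DESeq2. Among the 5 members of the further list with other architectures, TRIM37 passed the unadjusted p and 0 passed DESeq2. Together 21 of the 46 tested members were called in at least 1 of the 4 comparisons, in either direction, and 25 in none, and 40.7% of all genes were called in at least 1, so that this share lay near the background.

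Chromosome 11 holds 19 of the 73 members, 11 of them with counts. TRIM6 (chr11:5596109-5612958), TRIM34 (chr11:5619764-5644398), TRIM5 (chr11:5663557-5938619, minus strand) and TRIM22 (chr11:5689689-5737089) are neighbours, and TRIM22 lies within the outer limits of TRIM5 on the opposite strand without shared exonic bases. These neighbours moved unequally. The log2 fold changes with shMPZL3 #1 and shMPZL3 #2 were 2.34 and 0.49 for TRIM6, 0.60 and 0.14 for TRIM5 and 3.44 and 3.88 for TRIM22. TRIM21 (chr11:4384897-4393696) lies apart from them on the same chromosome.

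Relatives that carry a TRIM structure under another symbol were read from the same fit. PML, the organiser of nuclear bodies, had 918 to 1206 normalized counts in scr and 1767 to 2798 in the knockdown, without overlap, and was higher in the grouped comparison (1.14 ± 0.17, adjusted p = 0.00103). MID1 and MID2, microtubule-bound ligases, reached 0.26 (adjusted p = 0.0995) and 0.88 (adjusted p = 0.0918) in the grouped comparison. With shMPZL3 #1 both were called higher, MID1 at 0.30 ± 0.11 (adjusted p = 0.0453) and MID2 at 1.22 ± 0.29 (adjusted p = 0.0045), and with shMPZL3 #2 they stood at 0.23 (adjusted p = 0.174) and 0.43 (adjusted p = 0.373), with no difference between the shRNAs past the test. DESeq2 called 2 of these 3 relatives higher in the grouped comparison. MEFV was not tested, with 1 count in all libraries.

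Among 10 genes that work with these ligases in RNA sensing and ISG15 conjugation, 8 were higher in the grouped comparison and 0 lower, beside 9.36% of all genes higher and 6.4% lower, with a median log2 fold change of 1.15. ISG15, the ubiquitin-like modifier, rose by 2.47 ± 0.28 (adjusted p = 0.000292). Its ligase HERC5 rose by 1.62 ± 0.26, its E2 enzyme UBE2L6 by 1.26 ± 0.23 and its E1 enzyme UBA7 by 1.17 ± 0.20. HERC6, a relative of HERC5, rose by 1.77 ± 0.22. DDX58, which encodes RIG-I, rose by 0.86 ± 0.16 (adjusted p = 0.00377), while its adaptor MAVS stood at 0.21 (adjusted p = 0.357) and ZC3HAV1 at 0.37 (adjusted p = 0.0728). MAVS was split between the shRNAs, with 3579 to 3976 normalized counts in scr, 4552 to 5633 with shMPZL3 #1 (0.41 ± 0.11, adjusted p = 0.00812) and 3274 to 3998 with shMPZL3 #2 (-0.03 ± 0.11, adjusted p = 0.892), and the shRNAs differed by -0.44 ± 0.11 (adjusted p = 0.0114). ZC3HAV1 was called higher with shMPZL3 #2 (0.47 ± 0.13, adjusted p = 0.0192) and reached 0.26 with shMPZL3 #1 (adjusted p = 0.136). Of 8 genes for E2 enzymes and E2 variants (UBE2V1 and UBE2V2) that serve RING ligases, 0 were called in the grouped comparison. UBE2D4 stood at 0.40 (adjusted p = 0.0649) and UBE2V2 at -0.38 (adjusted p = 0.0604). At an unadjusted p under 0.05, 1 of these genes was higher (UBE2D4) and 2 were lower (UBE2V2 and UBE2N), and DESeq2 called UBE2D4 higher and UBE2V2 lower. With shMPZL3 #1, 3 of the 8 were called, UBE2D4 higher (0.52 ± 0.14, adjusted p = 0.00785) and UBE2N (-0.43 ± 0.10, adjusted p = 0.00333) and UBE2V2 (-0.40 ± 0.14, adjusted p = 0.0379) lower, and with shMPZL3 #2, 0 were. Over all genes, 16.8% were higher and 15.3% lower with shMPZL3 #1, and 9.36% and 5.8% with shMPZL3 #2. Of 8 tested partners of TRIM28 in heterochromatin, 3 were lower, beside 6.4% of all genes, the HP1 genes CBX3 (-0.55 ± 0.14, adjusted p = 0.0201), CBX5 (-0.46 ± 0.11, adjusted p = 0.0173) and CBX1 (-0.37 ± 0.08, adjusted p = 0.00836), and SETDB1, the histone methyltransferase, stood at -0.18 (adjusted p = 0.176) and was lower with shMPZL3 #1 (-0.26 ± 0.09, adjusted p = 0.048). Of 25 interferon-stimulated genes, 23 were higher, beside 9.36% of all genes, and 0 lower, with a median of 2.52 and the largest values for OAS2 (5.54 ± 0.91), IFI44L (5.26 ± 0.78) and OAS1 (5.04). The interferon-inducible TRIM members thus had a median of 0.57 beside 2.52 for that list, and TRIM22 was the listed TRIM member above it.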

How the data were processed

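The authors extracted RNA from OVCAR4 cells, made poly-A selected libraries that do not mark strand, and sequenced them on the Illumina NovaSeq platform. The submitters' processing notes name HISAT2 2.0.5 and featureCounts 1.5.0-p3 and the build hg38. The deposited values are raw counts per gene, neither normalized nor pooled. The annotation release is not given in the sources used here, and all 58735 genes had the identifier and position of GENCODE release 29. Groups came from the sample labels.

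The counts were analysed with edgeR 4.0.16 in R 4.3.3. TMM scaling, filterByExpr and two-sided quasi-likelihood tests were used on 16928 genes, with Benjamini-Hochberg adjustment over all of them and calls at an adjusted p under 0.05. The 6 knockdown libraries were compared with the 3 scr libraries, and a fit of 3 groups compared each shRNA with scr and the shRNAs with each other. RPKM values were computed from TMM-scaled CPM and the gene lengths of the table, and log2 CPM with a prior count of 2. The alternatives were DESeq2 1.42.0, RLE and upper-quartile scaling, no filter, at least 10 counts in every library, a replicate block, the mean of both shRNAs, a wider interferon list and leaving out each library. Tests were checked on simulated counts.

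The members, the lists and the tests were chosen with earlier results of these data known, and the lists were written from general knowledge. Named members are those of the interferon list, others called in any comparison, the 5 highest in scr, and the examples of largest change in each class or pathway list. TRIM37, MAVS, ZC3HAV1, UBE2N and SETDB1 were named beside them after their values were seen. Promoters are from the RefSeq table for GRCh38.p14. The study's methods call the 3 libraries of a condition biological replicates, and the labels do not say what was repeated. No 2 replicates were alike within counting noise (chi-square per gene 3.16 to 24.1). Depth was 15040102 to 27835841 counts per library, and values near 10 counts are imprecise.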

Additional observations from a re-analysis of the deposited data

Results flagged for a closer look

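The following 8 members were marked because the effect of shMPZL3 #2 differed from that of shMPZL3 #1 in the test of the difference itself (edgeR quasi-likelihood test, adjusted p under 0.05). Of the 46 tested members, 3 were higher and 5 lower, beside 7.56% of all genes in each direction. Leaving out 1 library took the call away in 3 cases for TRIM5, 6 for TRIM24, 3 for TRIM25 and 8 for TRIM66. Against shMPZL3 #1, the log2 difference was -1.85 for TRIM6, -0.56 for TRIM66, -0.46 for TRIM5, -0.44 for TRIM38 and -0.32 for TRIM24, and it was 0.46 for TRIM25, 0.63 for TRIM14 and 0.63 for TRIM28. MPZL3 itself was lower with shMPZL3 #1 (119 to 143 normalized counts) than with shMPZL3 #2 (271 to 380), and the part of that gap in these differences was not tested. For each of the 46 tested members, the highest and the lowest of the 6 knockdown libraries were set against the rest by Dixon's criterion, which chance passes in about 1 in 20 groups. TRIM39 alone passed, with a ratio of 0.651, since shMPZL3 #1 replicate 3 had 195 normalized counts and the other 5 knockdown libraries 126 to 147, beside 92.1 to 160 in scr. HCG18, on the opposite strand, overlaps 12.2% of the exonic bases of TRIM39, and its part in this value was not tested.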

How the results depend on the processing

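The number of members called higher in the grouped comparison was 13, and 13 to 16 under the alternatives that kept all libraries, and 6 to 14 when 1 library was left out (6 without scr replicate 1, 8 without scr replicate 3). The member called lower with shMPZL3 #1 was joined by TRIM33, giving 2, with the replicate block and without shMPZL3 #1 replicate 2 (range 1 to 2), and the count lower with shMPZL3 #2 ranged from 0 to 1. The 5 members lower in shMPZL3 #2 against shMPZL3 #1 became 3 with no filter and 2 to 5 with 1 library left out (2 without shMPZL3 #1 replicate 2 or 3 or shMPZL3 #2 replicate 3, 3 without scr replicate 2 or 3). The median log2 fold change of the interferon list with shMPZL3 #2 (0.78) was 0.55 with the wider list. The wider list added TRIM6, TRIM31, TRIM35, TRIM46, TRIM58 and TRIM62. In the grouped comparison 7 of its 15 tested members were higher (median 0.57), and 6 of 31 outside it (median 0.12), beside 9.36% of all genes. With at least 10 counts in every library, the median of the first list with shMPZL3 #2 was 0.57. That minimum took TRIM22, with 8 raw counts in scr replicate 1, out of the list, so the members were not the same. Against scr, TRIM38 with shMPZL3 #2 changed sign around 0, with 0.0058 at that minimum, and -0.054 to 0.021 when 1 library was left out, and TRIM56 between the shRNAs ranged from -0.16 to 0.0039 when 1 library was left out, and neither passed the test in those comparisons. Calls near the threshold moved both ways. With no filter TRIM24 lost its calls with shMPZL3 #1 (adjusted p = 0.103) and between the shRNAs (0.0636), and TRIM66 lost its call (0.0784). TRIM25 with shMPZL3 #1 passed with upper-quartile scaling, no filter and at least 10 counts in every library (adjusted p of 0.0419, 0.0297 and 0.0357), TRIM26 with shMPZL3 #1 with the first and last of these (0.0348 and 0.0271), TRIM56 with shMPZL3 #2 with all of them (0.0491, 0.0433 and 0.0379) and DESeq2 (0.0309), and TRIM5 passed as the mean of both shRNAs (0.0294). The cause of these shifts was not tested.

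The replicate numbers share no stated culture or batch. Same-numbered samples of different groups had deviations that correlated at 0.00 to 0.22, and differently numbered samples at -0.15 to 0.067. The same-numbered pairs of shMPZL3 #1 and shMPZL3 #2 stood at 0.14, 0.22 and 0.097, above all differently numbered pairs. Not every same-numbered pair passed 0.1, and the numbers were not taken to pair the samples. The summed CPM of the 25 interferon-stimulated genes rose with replicate number in each group. It was 303, 377 and 463 in scr, 889, 1180 and 1937 with shMPZL3 #1, and 1756, 1959 and 2040 with shMPZL3 #2. A shared origin was not tested. With the replicate block, 13 members were higher in the grouped comparison, 19 with shMPZL3 #1 and 15 with shMPZL3 #2, and 4 were higher and 6 lower between the shRNAs, while calls over all genes went from 2667 to 2424, from 5423 to 6355, from 2567 to 3680 and from 2559 to 3823. The block made calls of TRIM25 (adjusted p = 0.00819) and TRIM26 (0.0326) with shMPZL3 #1 and of TRIM56 (0.0117) with shMPZL3 #2, which missed the threshold without it.

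Members with around 10 counts per library in scr (TRIM6, TRIM22, TRIM9 and TRIM31) have imprecise fold changes, and 27 members had too few counts to be tested.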
